A study of Homo sapiens with 12 samples.

Results

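The 3 genes of the IGF2BP family (IGF2BP1, IGF2BP2 and IGF2BP3) and 7 oncofetal genes of liver cancer (IGF2, H19, LIN28B, AFP, GPC3, DLK1 and PEG10) were followed through transcript abundance and ribosome occupancy in HepG2 cells. These 10 genes were chosen by symbol, as genes of fetal liver that liver tumours switch on again, and all 10 were found among the 58721 genes of the count tables. HepG2 is a human liver cancer cell line. One condition received a non-targeting siRNA (siControl) and the other received siRNA that targets IGF2BP3 (siIGF2BP3). All cells were exposed at 2 days to cycloheximide, which halts ribosomes on mRNA (4 min at 100 µg/mL), and lysed. Each condition gave 3 Input libraries, which report RNA abundance, and 3 RPF libraries, made from ribosome-protected fragments of 28 to 30 nt left by RNase I, so that there were 4 groups and 12 libraries. The knockdown was transient, all cells were of 1 line, and nothing in the labels says that libraries of a group came from separate cultures, so that the p-values below measure the spread between libraries, which may be technical.

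IGF2BP proteins bind mRNA through RRM and KH domains and are known to affect the stability, transport and translation of their targets, among them the IGF2 mRNA that gave the family its name. They are made in the embryo, and IGF2BP1 and IGF2BP3 are largely silent in adult tissue, whereas IGF2BP2 is more widely expressed. LIN28B blocks the maturation of let-7 microRNAs, and the IGF2BP mRNAs are known let-7 targets. IGF2 is a fetal growth factor, H19 the imprinted non-coding RNA beside it, AFP the main plasma protein of the fetus, GPC3 a cell-surface heparan sulfate proteoglycan, DLK1 a membrane protein of the Delta family found on hepatoblasts, and PEG10 an imprinted gene derived from a retrotransposon.

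Ribosomes begin at the start codon, so the bases around it are shown for the 9 protein-coding genes, read from the GENCODE canonical transcripts (GRCh38), with the ATG in capitals, 9 bases before and 6 after it. H19 has no coding sequence.
IGF2BP1: accgccaccATGaacaag
IGF2BP2: aagagacggATGatgaac
IGF2BP3: ctcttcacaATGaacaaa
IGF2: cagacaccaATGggaatc
LIN28B: tggggcaacATGgccgaa
AFP: ctagcaaccATGaagtgg
GPC3: cgaagcaggATGgccggg
DLK1: cgcccagagATGaccgcg
PEG10: gtggtgagtATGcgaaat
The window of IGF2BP1 is chr17:48997737-48997754 on the plus strand, that of IGF2BP2 chr3:185824952-185824969 on the minus strand and that of IGF2BP3 chr7:23470102-23470119 on the minus strand. A purine 3 bases before the ATG, the stronger part of the Kozak context, was present in IGF2BP1 and IGF2BP3 and absent in IGF2BP2 and IGF2, and 86.1% of all canonical coding transcripts had one. In IGF2BP2 the start codon is followed directly by another ATG. A G right after the ATG was present in IGF2, LIN28B and GPC3, against 51.5% of all canonical coding transcripts.

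PEG10 is read in 2 overlapping frames through a programmed -1 frameshift, so its footprint count sums both products. The heptamer GGGAAAC, at which ribosomes are known to slip, was found in the genome, with its first base as base 3 of a codon in the frame of the start codon and after 393 codons of the annotated 783. It is shown in capitals at chr7:94664499-94664527, plus strand.
PEG10 slip site: tcttcgccggcGGGAAACtccccggcccc

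On GRCh38, IGF2BP1 (ENSG00000159217) spans chromosome 17, 48997412 to 49055650, and IGF2BP2 (ENSG00000073792) chromosome 3, 185643739 to 185825056. IGF2 (ENSG00000167244) lies at 2129112 to 2149603 and H19 (ENSG00000130600) at 1995176 to 2001470 of chromosome 11, in the same imprinted cluster. LIN28B (ENSG00000187772) lies at 104936616 to 105083332 of chromosome 6 and AFP (ENSG00000081051) at 73431138 to 73456174 of chromosome 4. GPC3 (ENSG00000147257) covers 133535745 to 133985895 of chromosome X, DLK1 (ENSG00000185559) covers 100725705 to 100738224 of chromosome 14, and PEG10 (ENSG00000242265) covers 94656325 to 94669695 of chromosome 7.

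The libraries held between 11219750 and 31510601 counts. Over all genes, siControl RPF replicates 2 and 3 differed by less than the sampling noise (mean chi-square per gene 0.941) so means and SDs take them together as 1 sample, with n = 2 for that group. The main RPF, TE and baseline tests keep them as separate libraries, which can make their p-values too small, and fits with the pair summed are alternatives. siIGF2BP3 RPF replicate 1 stood apart. It differed from replicates 2 and 3 by 19.9 and 21.5 on the same measure, while those differed from each other by 1.15, and calls of the 10 genes that change without it are given both ways. All 10 hepatocyte markers examined (among them ALB, APOA1 and HNF4A) were at 1 CPM or more in every group. The haematopoietic, fibroblast or stellate and endothelial lists summed to at most 48.7, 5.00 and 1.88 TPM, and PTPRC, HBB, COL3A1 and DCN were at 0 in siControl Input. Not all their markers were absent. The highest of each list in siControl Input were CD68 (37.5 TPM), PDGFRB (3.85 TPM) and PECAM1 (0.682 TPM). CPM is a gene's count scaled to the library total, and TPM further divides by the deposited exon length, so that genes can be compared.

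The targeted gene was examined first. IGF2BP3 (ENSG00000136231, chromosome 7, 23310209 to 23470467, minus strand) gave 133, 129 and 127 CPM in the siControl Input libraries, against 103, 97.9 and 105 CPM after knockdown. In RPF it measured 74.6, 78.1 and 77.7 CPM in siControl, against 21.9, 28.0 and 25.2 CPM in siIGF2BP3. The groups did not overlap in either assay, and the drop was larger in footprints than in RNA. On the log2 scale RNA changed by -0.39 ± 0.05 (SE, n = 3 against 3, adjusted p = 1.06e-05, edgeR) and RPF by -1.59 ± 0.08 (SE, adjusted p = 0.000301, edgeR). The change of RPF relative to RNA, called translational efficiency (TE), was -1.19 ± 0.09 (SE, adjusted p = 4.65e-07, edgeR interaction), and it was -1.13 without siIGF2BP3 RPF replicate 1. With siControl RPF replicates 2 and 3 summed, the changes were -1.58 in RPF (adjusted p = 0.0066, edgeR) and -1.18 in TE (adjusted p = 5.81e-06, edgeR).

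IGF2BP3 was the smallest part of the family's RNA in control cells. Per exon length, IGF2BP2 was the most abundant of the family in RNA, with 285, 278 and 283 TPM in siControl Input. IGF2BP1 followed with 212, 197 and 202 TPM and IGF2BP3 with 56.0, 53.6 and 53.1 TPM. The libraries of these paralogues did not overlap. IGF2BP2 made up 52.2% ± 0.585 (SD, n = 3), IGF2BP1 37.7% ± 0.533 and IGF2BP3 10.1% ± 0.159 of the summed TPM of the family in siControl Input. These shares rest on the deposited exon lengths. That of IGF2BP3 was 8511 bases, but its canonical transcript has 4274. For IGF2BP1 the lengths were 9109 and 8796 bases, and for IGF2BP2 4735 and 4283. The share of IGF2BP3 would be larger by canonical length, and the SDs do not cover this.

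In footprints the order of the family changed. IGF2BP1 led in siControl RPF with 59.6, 58.5 and 58.8 TPM, ahead of IGF2BP2 with 20.3, 20.5 and 20.9 TPM and IGF2BP3 with 13.3, 13.8 and 13.8 TPM. IGF2BP1 took 63.5% ± 0.706 (SD, n = 2), IGF2BP2 22.0% ± 0.339 and IGF2BP3 14.6% ± 0.367 of the family's footprints per exon length. The ratio of IGF2BP1 to IGF2BP2 was thus 0.722 ± 0.018 (SD, n = 3) in RNA and 2.88 ± 0.076 (SD, n = 2) in footprints. Ribosomes sit on the coding part only, and per coding length (1731, 1797 and 1737 bases for IGF2BP1, IGF2BP2 and IGF2BP3) the ratio of IGF2BP1 to IGF2BP2 was 5.76. On that scale IGF2BP2 fell below IGF2BP3, with a ratio of 0.814 in place of 1.51 per exon length, so the order of IGF2BP2 and IGF2BP3 in footprints depended on the length used. In siIGF2BP3 RPF the share of IGF2BP3 per exon length was 5.65% ± 0.886 (SD, n = 3).

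**Figure D1:**
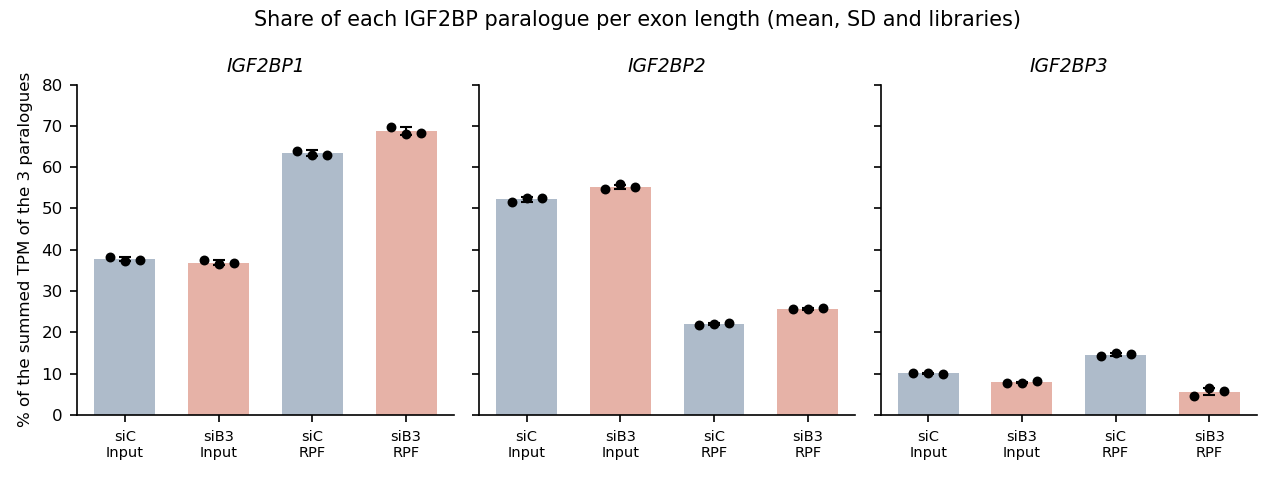
Share of each IGF2BP paralogue in the summed TPM (per exon length) of the 3 paralogues, in % on an axis from 0, for siControl (siC) and siIGF2BP3 (siB3) Input and RPF libraries; bars are means, error bars SD (n = 3, and n = 2 for siControl RPF, where replicates 2 and 3 count as 1 sample) and points single libraries. IGF2BP2 is the largest in Input at 52.2% and IGF2BP1 in RPF at 63.5%. The shares depend on the exon lengths used.

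Could footprints of one paralogue be counted for another? No stretch of 28 bases was shared between the canonical transcript of any paralogue and a transcript of another. Processed pseudogenes did share sequence. Of the 28-base stretches of the IGF2BP2 transcript 20.8%, and of the IGF2BP3 transcript 18.2%, also occurred in transcripts of other genes, against 0.0114% for IGF2BP1. The 3 pseudogenes of IGF2BP2 summed to 23.2, 22.1 and 23.3 CPM in siControl RPF but only to 0.240, 0.327 and 0.317 CPM in siControl Input, and the 2 of IGF2BP3 held between 20.7% and 21.7% of the joint count in siControl RPF. The RPF values of IGF2BP2 and IGF2BP3 are uncertain to that extent. After knockdown the 2 IGF2BP3 pseudogenes had log2 changes of -2.58 and -2.53 in RPF (adjusted p = 0.00012 and 0.000301, edgeR). Their share of the joint count was then 11.55% to 12.12%. The 3 IGF2BP2 pseudogenes were not called, at -0.03, -0.14 and -0.16 (adjusted p of at least 0.311, edgeR). Which gene these reads came from was not tested. With the pseudogenes added, the fall of IGF2BP3 after knockdown was -1.76 in RPF and -1.35 in TE.

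Neither other paralogue changed its RNA by the test. IGF2BP1 measured 539, 505 and 516 CPM in siControl Input, against 526, 495 and 510 CPM in siIGF2BP3, a log2 change of -0.07 ± 0.04 (SE, adjusted p = 0.358, edgeR). In RPF it measured 357, 354 and 355 CPM in siControl, against 348, 314 and 320 CPM in siIGF2BP3, a log2 change of -0.10 ± 0.06 (SE, adjusted p = 0.486, edgeR). All 3 siIGF2BP3 RPF libraries lay below the siControl ones, and without siIGF2BP3 RPF replicate 1 the change of -0.17 passed the test (adjusted p = 0.000764, edgeR). That fit called 16.5% of all genes, and with siControl RPF replicates 2 and 3 summed as well the change was -0.17 (adjusted p = 0.00382, edgeR), with 14.5% of all genes called. IGF2BP2 measured 377, 371 and 375 CPM in siControl Input, against 399, 394 and 397 CPM in siIGF2BP3. These groups did not overlap, but with TMM scaling, which centres the libraries on the bulk of genes, the log2 change was 0.04 ± 0.04 (SE, adjusted p = 0.687, edgeR). In RPF IGF2BP2 measured 63.3, 64.5 and 65.7 CPM in siControl, against 66.3, 61.5 and 62.9 CPM in siIGF2BP3, with overlapping libraries and a log2 change of -0.01 ± 0.06 (SE, adjusted p = 0.99, edgeR).

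Across the 10 genes, levels per length spanned a wide range. AFP was the highest in siControl Input at 9021 ± 140 TPM (SD, n = 3), which ranked 7 among 15564 protein-coding genes with a count. IGF2 followed at 3036 ± 70 TPM (rank 33), then PEG10 at 1600 ± 67 TPM (rank 63), GPC3 at 560 ± 24 TPM (rank 193) and IGF2BP2 at 282 ± 3.7 TPM (rank 430). IGF2BP1 at 204 ± 7.5 TPM and LIN28B at 184 ± 14 TPM came next, and they were the only neighbours in this order whose libraries overlapped. DLK1 stood at 128 ± 6.0 TPM, IGF2BP3 at 54.3 ± 1.6 TPM and H19 last at 3.05 ± 0.642 TPM. In siControl RPF the order was AFP (4515 TPM, group mean), GPC3 (1787 TPM), PEG10 (267 TPM), DLK1 (83.2 TPM), IGF2BP1 (59.1 TPM), IGF2 (30.6 TPM), IGF2BP2, IGF2BP3, LIN28B (8.95 TPM) and H19, and no neighbours overlapped. These RPF levels are per exon length. Per coding length the order in siControl RPF was AFP, GPC3, PEG10, IGF2 (316 TPM), DLK1 (308 TPM), IGF2BP1 (249 TPM), LIN28B (57.3 TPM), IGF2BP3 (53.2 TPM) and IGF2BP2 (43.2 TPM), with overlap between IGF2 and DLK1 alone. Set against the order in RNA per exon length, and as counted, GPC3, DLK1 and IGF2BP3 stood higher in footprints on both scales and IGF2 and IGF2BP2 lower, while IGF2BP1 was higher and LIN28B lower per exon length only. Reads in the pseudogenes of IGF2BP2 and IGF2BP3 and in the genes that overlap IGF2 were not added. IGF2 held 47.8% to 48.3% of the joint count with those genes in siControl RPF, and 46.4% to 46.8% in siControl Input. PEG10 was divided by 6689 bases, against 2585 in its canonical transcript. The levels and ranks of IGF2 and PEG10 in siControl Input are uncertain for these reasons. With reads of the pseudogenes and overlapping genes not added, the places of PEG10, IGF2, LIN28B, IGF2BP3 and IGF2BP2 per coding length are uncertain too.

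**Figure D2:**
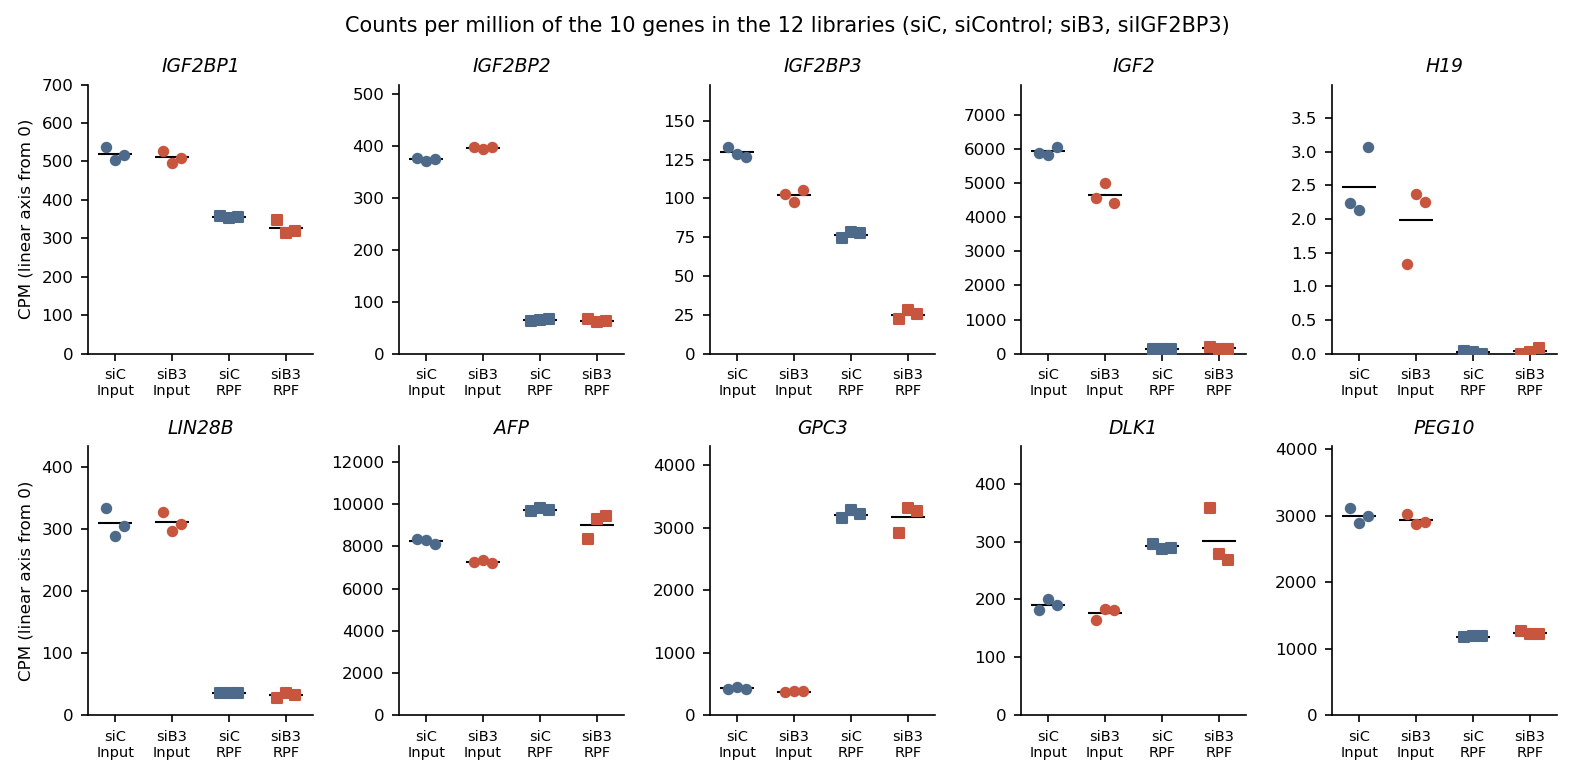
CPM of each of the 10 genes in every library, 1 panel a gene with a linear axis from 0 that differs between panels; circles are Input, squares RPF, blue siControl (siC), red siIGF2BP3 (siB3), and the line is the group mean (siControl RPF replicates 2 and 3 counted as 1 sample). IGF2BP3 falls in both assays, and IGF2, AFP and GPC3 are lower in siIGF2BP3 Input.

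Baseline translation in siControl cells was described by the RPF/Input ratio, RPF CPM over Input CPM. Its median was 0.933 over the 9356 protein-coding genes with at least 5 CPM in both assays, and the middle of the distribution, from the 10th to the 90th percentile, ran from 0.278 to 2.70. The ratio compares a gene with the other genes of these libraries and is no absolute efficiency. In the edgeR comparison of RPF with Input (TMM, 6 libraries), 89.9% of all genes tested were called, 45.1% with more and 44.8% with fewer footprints, so being called says little about a gene and its size and place are given. All 9 of the 10 genes that passed the filter on low counts were called, 3 up and 6 down, with a median log2 value of -0.60 against 0.00 over all genes.

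Among the genes of the cell surface and of secretion the ratio was high for GPC3, whose 3 same-numbered library pairs gave 7.58, 7.31 and 7.82. Only 42 of the 9355 other genes were higher. The log2 value was 3.08 ± 0.04 (SE, adjusted p = 5.11e-22, edgeR). DLK1 had ratios of 1.64, 1.44 and 1.51, with 72.2% of genes below it, and AFP 1.16, 1.18 and 1.20, with 60.9% below. IGF2, which is secreted too, lay at the other end. It had ratios of 0.0236, 0.0246 and 0.0234, and only 3 of 9355 genes were lower. Its RPF CPM was 42.1-fold below its Input CPM, and the log2 value was -5.23 ± 0.04 (SE, adjusted p = 3.96e-25, edgeR).

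The RNA-binding proteins spread widely. IGF2BP1 had ratios of 0.664, 0.700 and 0.689 (36.5% of genes below) and IGF2BP3 0.560, 0.608 and 0.613 (30.6% below). IGF2BP2 had 0.168, 0.174 and 0.175, with 3.82% of genes below, a log2 value of -2.38 ± 0.04 (SE, adjusted p = 1.29e-21, edgeR). LIN28B was lower still at 0.107, 0.125 and 0.114, with 1.29% below, and PEG10 stood at 0.377, 0.411 and 0.395, with 17.9% below. The ranges of all these genes were apart. IGF2BP1 and IGF2BP3 changed order with the pseudogene reads, since the log2 value of IGF2BP1 was -0.39 ± 0.03 and that of IGF2BP3 was -0.60 ± 0.04 as counted but -0.26 ± 0.04 with its pseudogenes added. With its own pseudogenes added IGF2BP2 was still at -1.94 ± 0.03.

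Ribosomes occupy the coding part of an mRNA, and that part differs in length between these genes. The exon length was 12.9 times the coding length for IGF2 (6979 and 540 bases), 8.0 times for LIN28B, 5.26 times for IGF2BP1, 2.63 times for IGF2BP2 and 1.56 times for GPC3. With footprints per coding length over RNA per exon length, the ratio was 0.105 for IGF2 (1.26% of genes below), 0.312 for LIN28B (10.8% below), 0.154 for IGF2BP2 (2.96% below), 0.987 for IGF2BP3 (44.6% below), 1.22 for IGF2BP1 (53.5% below) and 4.00 for GPC3 (90.7% below), against a median of 1.12. DLK1 had 2.39 (78.4% below), PEG10 0.381 (14.4% below) and AFP 0.716 (32.3% below). AFP thus lay below the median of all genes on this scale, though above it by the ratio of CPM. IGF2BP2 then stood below LIN28B, while IGF2 remained the lowest of the 9. The exon length joins all annotated isoforms, of which HepG2 may use only some.

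**Figure D3:**
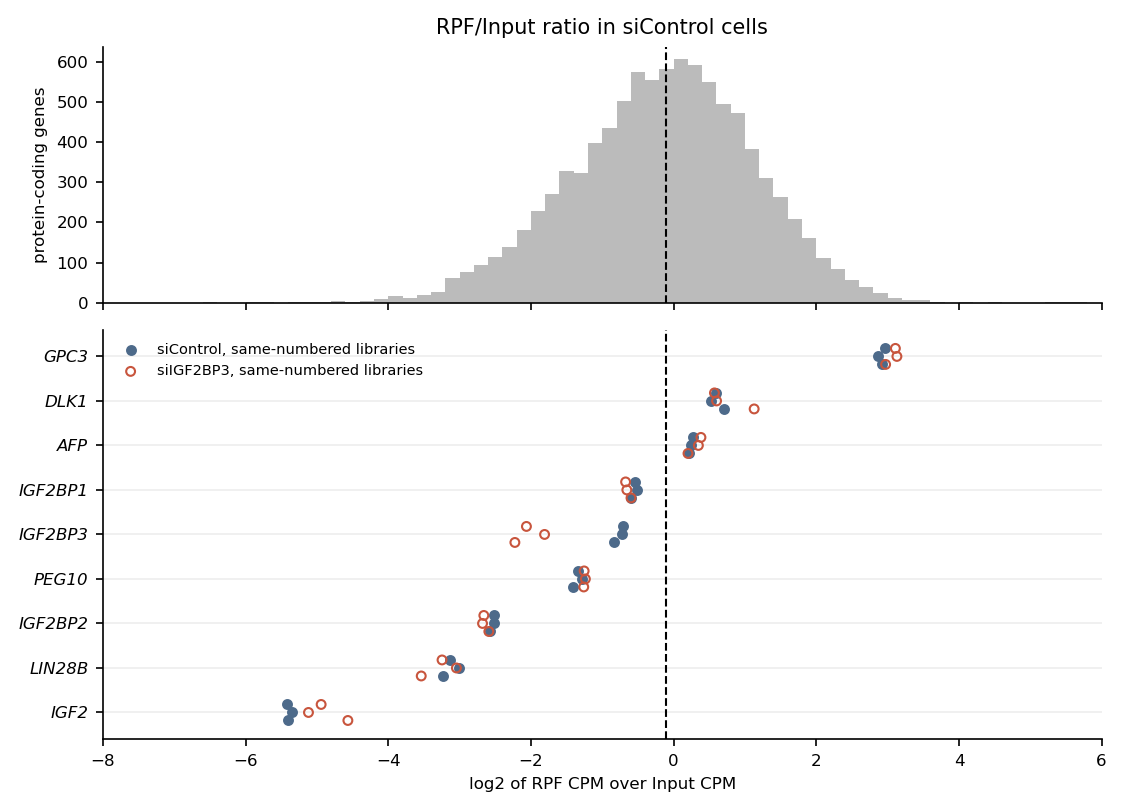
Upper panel, histogram of log2 of RPF CPM over Input CPM for the 9356 protein-coding genes with at least 5 CPM in both assays in siControl; lower panel, the same log2 ratio for 9 of the 10 genes, with filled points for the 3 same-numbered siControl library pairs and open points for siIGF2BP3; the dashed line is the median ratio of all genes, 0.933. GPC3 lies at the right edge of the histogram, IGF2 at the left edge, the siIGF2BP3 points of IGF2BP3 lie to the left of its siControl points, and those of IGF2 to the right.

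H19 was nearly absent from footprints. It was listed with 28, 31.5 and 38.8 counts in siControl Input and with 1, 0.5 and 0 counts in siControl RPF, which gave a ratio of 0.00821 with a 95% interval of 0.000584 to 0.0360 from counting error alone. H19 RNA was low in these cells, 2.24, 2.13 and 3.08 CPM in siControl Input against 1.34, 2.36 and 2.25 CPM in siIGF2BP3. These libraries overlapped (log2 change -0.36 ± 0.26, SE, adjusted p = 0.464, edgeR), and at so few counts a change of this size was not detectable. MIR675, the microRNA gene inside H19, had at most 0.0425 CPM as a group mean.

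After IGF2BP3 knockdown, 4 of the 10 genes fell in RNA and none rose. Of all genes tested 1.90% fell and 5.96% were called in either direction. The 4 were the targeted gene itself, IGF2, AFP and GPC3. IGF2 measured 5895, 5847 and 6084 CPM in siControl Input, against 4581, 5022 and 4418 CPM in siIGF2BP3. The groups were apart, with means of 5942 ± 125 and 4674 ± 312 CPM (SD, n = 3) and a log2 change of -0.39 ± 0.05 (SE, adjusted p = 1.27e-05, edgeR). AFP fell from 8326, 8314 and 8095 CPM to 7248, 7329 and 7229 CPM, a log2 change of -0.23 ± 0.04 (SE, adjusted p = 0.00219, edgeR). GPC3 fell from 417, 448 and 412 CPM to 370.4, 378 and 378 CPM, a log2 change of -0.23 ± 0.05 (SE, adjusted p = 0.00252, edgeR). The siIGF2BP3 libraries of AFP and GPC3 lay below all siControl ones, with small spread.

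These falls stood beside falls of other liver transcripts. Of the 10 hepatocyte markers 5 fell in Input (ALB, APOA1, SERPINA1, TF and FGA, by 0.15 to 0.29 on the log2 scale) and none rose, and the list's summed level was 36163 to 36757 TPM in siControl and 33805 to 34298 TPM in siIGF2BP3 Input. In RPF none of the 10 passed, with sums of 25578 to 26206 TPM in siControl and 17903 to 23619 TPM in siIGF2BP3. The RPF sums depend on the TPM scale, since these markers fell more in TPM than in CPM. APOA2, for example, went from 5032 to 4262 TPM but from 3146 to 3071 CPM (group means). With TMM scaling the list's median log2 change in RPF was -0.05. Their part in the changes of AFP, GPC3 and IGF2 was not tested.

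The other genes did not pass the test in RNA. DLK1 measured 181, 201 and 191 CPM in siControl Input, against 164, 183 and 181 CPM in siIGF2BP3, and its libraries overlapped. Its log2 change was -0.16 ± 0.05 (SE, adjusted p = 0.0564, edgeR), and it passed under 5 of 16 alternatives, with -0.21 without siControl Input replicate 1 (adjusted p = 0.011, edgeR). PEG10 was at 3115, 2889 and 3002 CPM and then at 3021, 2875 and 2909 CPM, a log2 change of -0.08 ± 0.05 (SE, adjusted p = 0.329, edgeR). LIN28B was at 334, 289 and 305 CPM and then at 328, 298 and 308 CPM, a log2 change of -0.04 ± 0.05 (SE, adjusted p = 0.728, edgeR). Both overlapped between the groups. In Input 5 of the 10 genes did not overlap between the conditions, which 25.0% of all genes tested also did.

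In footprints IGF2BP3 was the only 1 of the 9 genes tested that changed, and 0.649% of all genes fell there. IGF2 measured 139, 144 and 142 CPM in siControl RPF, against 193, 145 and 144 CPM in siIGF2BP3, where replicate 1 alone was high. The log2 change was 0.20 ± 0.13 (SE, adjusted p = 0.51, edgeR) and 0.02 ± 0.03 without that library. AFP was at 9666, 9815 and 9740 CPM and then at 8337, 9320 and 9428 CPM, all lower after knockdown, a log2 change of -0.09 ± 0.04 (SE, adjusted p = 0.315, edgeR). GPC3 was at 3156, 3278 and 3217 CPM and then at 2906, 3311 and 3265 CPM (log2 change -0.01 ± 0.05, SE, adjusted p = 0.954, edgeR), with overlap. DLK1 was at 296, 288 and 288 CPM and then at 358, 278 and 269 CPM, with replicate 1 high and the others low. Its log2 change was 0.07 ± 0.12 (SE, adjusted p = 0.828, edgeR), and it turned to -0.09 and passed the test without that library (adjusted p = 0.03, edgeR), but it did not pass once siControl RPF replicates 2 and 3 were summed too (-0.09, adjusted p = 0.0669, edgeR). PEG10 was at 1173, 1188 and 1185 CPM and then at 1262, 1220 and 1219 CPM, a log2 change of 0.08 ± 0.05 (SE, adjusted p = 0.45, edgeR). LIN28B was at 35.6, 36.0 and 34.8 CPM and then at 28.2, 36.0 and 32.5 CPM, a log2 change of -0.12 ± 0.07 (SE, adjusted p = 0.516, edgeR). In RPF 5 of the 10 genes did not overlap between the conditions, against 25.7% of all genes tested.

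For TE, IGF2BP3 was again the only gene of the 9 that passed, and 1.36% of all genes fell. IGF2 came next. Its RNA fell and its footprints did not pass the test, and its TE value of 0.59 ± 0.14 on the log2 scale did not pass either (SE, adjusted p = 0.0537, edgeR). It passed under 14 of 27 alternatives, with adjusted p between 3.83e-05 and 0.156 over all 27. Without siIGF2BP3 RPF replicate 1 it was 0.43 ± 0.06 (SE, adjusted p = 7.12e-05, edgeR), and with siControl RPF replicates 2 and 3 summed it did not pass (0.60 ± 0.16, SE, adjusted p = 0.11, edgeR). GPC3 (0.22 ± 0.07, SE, adjusted p = 0.0999, edgeR) and AFP (0.14 ± 0.06, SE, adjusted p = 0.248, edgeR) had the same sign and passed only without siIGF2BP3 RPF replicate 1, at 0.26 and 0.18, in a fit that called 10.0% of all genes. DLK1 (0.24 ± 0.14, SE) and PEG10 (0.16 ± 0.06, SE) had adjusted p of 0.432 and 0.187 (edgeR). The TE estimates of LIN28B, IGF2BP1 and IGF2BP2 were between -0.07 and -0.02, with adjusted p of at least 0.786 (edgeR).

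**Figure D4:**
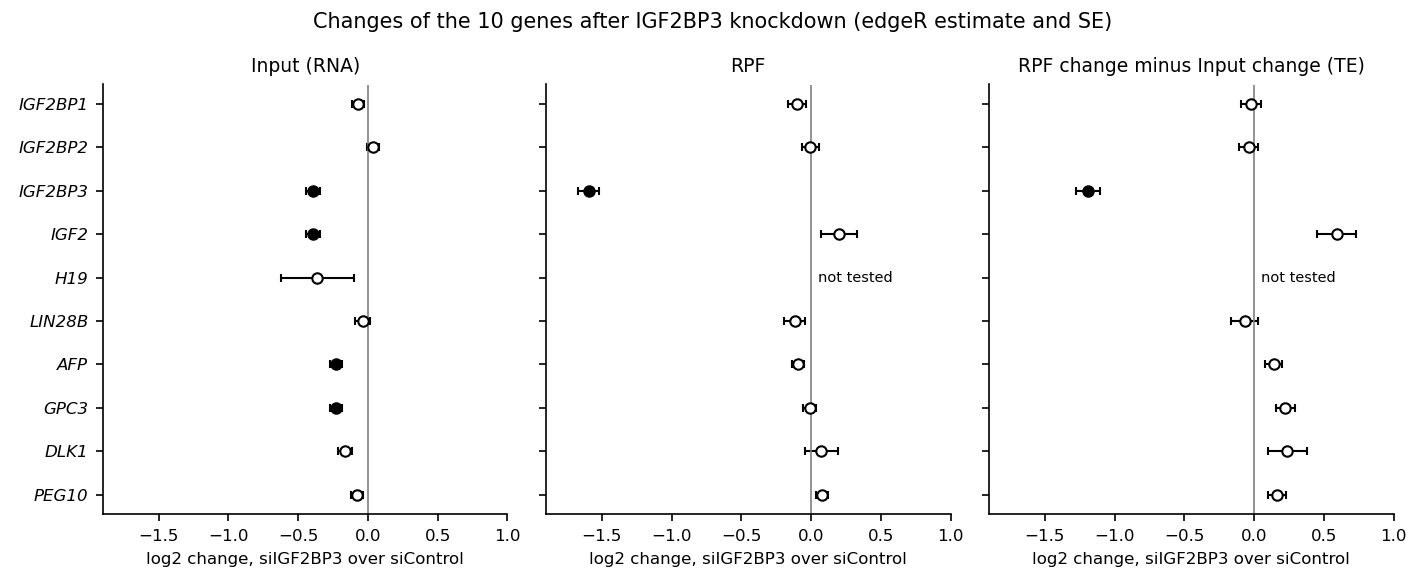
Log2 change, siIGF2BP3 over siControl, of the 10 genes in Input, in RPF and of RPF relative to Input (TE); points are edgeR estimates, error bars SE, filled where the adjusted p over all genes was under 0.05. IGF2BP3 is filled in all panels, and IGF2, AFP and GPC3 only in Input; H19 was too low to be tested in RPF and TE.

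IGF2 counts were shared with neighbours. ENSG00000284779, a protein-coding gene model that shares 37.6% of the 28-base stretches of the IGF2 transcript, had a mean of 5661 CPM in siControl Input, INS-IGF2 717 CPM and ENSG00000240801 428 CPM, and IGF2 itself held 46.4% to 46.8% of the sum of the 4 in those libraries. Summed, they were 12635, 12596 and 13013 CPM in siControl Input against 9918, 10802 and 9640 CPM in siIGF2BP3. The summed RNA changed by -0.38 ± 0.05 (SE, adjusted p = 1.99e-05, edgeR), and the groups were apart. In RPF the sum was 288, 299 and 297 CPM in siControl, against 392, 302 and 302 CPM in siIGF2BP3, where replicate 1 alone was well above the control libraries. The summed TE value was 0.57 ± 0.13 (SE, adjusted p = 0.0348, edgeR). It passed with all libraries and without siIGF2BP3 RPF replicate 1 (0.42 ± 0.06, SE, adjusted p = 3.83e-05, edgeR), but not with siControl RPF replicates 2 and 3 summed (0.58 ± 0.14, SE, adjusted p = 0.0741, edgeR). TE of ENSG00000284779 alone rose by 0.62 ± 0.11 (SE, adjusted p = 0.0051, edgeR), by 0.51 without siIGF2BP3 RPF replicate 1 (adjusted p = 2.03e-05, edgeR) and by 0.63 with the siControl replicates summed (adjusted p = 0.0141, edgeR). INS-IGF2 (0.41, adjusted p = 0.0898, edgeR) and ENSG00000240801 (0.86, adjusted p = 0.13, edgeR) did not pass. INS-IGF2 passed without siIGF2BP3 RPF replicate 1 (0.265, adjusted p = 0.00476, edgeR). All these models share sequence with IGF2, so their values are not separate evidence. MIR483, a microRNA gene inside IGF2, had no Input counts and RPF means of 2.69 CPM (siControl) and 5.35 CPM (siIGF2BP3) (log2 change 1.10 ± 0.30, SE, adjusted p = 0.121, edgeR). Its libraries spanned 2.19 to 2.95 CPM and 2.69 to 7.22 CPM, with overlap. Without siIGF2BP3 RPF replicate 1 the change of 1.35 passed (adjusted p = 9.52e-05, edgeR), in a fit that called 16.5% of all genes. SGCE, which overlaps PEG10 on the opposite strand, was not called in RNA, RPF or TE.

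Genes of the same pathways were counted from 4 lists, to be read against the 1.90% of all genes that fell and the 5.96% called in RNA. Of 11 genes of the IGF axis tested in RNA, 1 fell and none rose. It was IGFBP1, an insulin-like growth factor binding protein, with a log2 change of -0.21 (adjusted p = 0.00337, edgeR). IGFBP3, IGFBP4 and STC2, the other highly expressed genes of this list, had values of -0.12, 0.07 and -0.16, and the list's median was -0.03 against 0.00 over all genes. Of 17 genes of the LIN28 and let-7 axis, 1 fell in RNA (HIC2, a transcriptional repressor, -0.30, adjusted p = 0.0425, edgeR), and HMGA1, HMGA2 and DICER1 had values of -0.11, -0.07 and -0.11. Of 16 imprinted genes tested, IGF2 fell and the non-coding KCNQ1OT1 rose by 0.20 (adjusted p = 0.0347, edgeR), while PEG3 and GNAS had values of -0.01 and -0.06. Of 17 fetal liver and progenitor genes, AFP, GPC3 and the keratin KRT19 fell, the last with -0.24 (adjusted p = 0.000791, edgeR), and AKR1B10 was at -0.03. The lists hold some of the 10 genes themselves. These are LIN28B in the LIN28 and let-7 list, IGF2, H19, DLK1 and PEG10 in the imprinted list, and AFP, GPC3 and DLK1 in the fetal liver list. No gene of these 4 lists passed in RPF or TE.

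At baseline 13 of the 17 genes of the LIN28 and let-7 axis had fewer and 4 had more footprints than the average gene, where 44.8% and 45.1% of all genes did, and the list's median log2 value was -1.19 against 0.00 over all genes. Its median RPF/Input ratio was 0.395 against 0.933 over all genes, and per coding length it was 0.417 against 1.12, with 12 of 17 genes below the median of all genes. HMGA2, a chromatin protein, was at -2.52, TRIM71 at -1.74 and LIN28B at -2.97. The 4 with more footprints were the cell-cycle phosphatase CDC25A at 2.13, E2F5 at 1.31, DIS3L2 at 1.17 and DGCR8 at 0.67. Among 14 imprinted genes 6 were above and 8 below, from KCNQ1OT1 at -6.93 to the IGF2 receptor IGF2R at 2.38. In the IGF axis 2 of 11 were above and 7 below. Among 13 fetal liver genes 6 were above and 5 below. For these other lists the median ratio per coding length was 0.956 (imprinted, 11 genes with a ratio), 0.545 (IGF axis, 10 genes) and 0.808 (fetal liver, 10 genes).

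The genes whose pattern over the 12 libraries lay nearest to that of each paralogue, by Euclidean distance of centred log2(CPM + 0.5) among 9504 other genes, differed in how near they came. For IGF2BP1 they were TMED5, DDX19A and PROC at distances of 0.132 to 0.177, and for IGF2BP2 PTPN11, FARP1 and ASAP1 at 0.190 to 0.217. For IGF2BP3 no gene came close, and CCNG2, YOD1 and FRS2 lay at 1.34 to 1.38. These genes were chosen for their pattern in the same libraries, so their values are a description and no test is given. CCNG2, an unconventional cyclin, had group means of 23.9 (siControl) and 19.7 CPM (siIGF2BP3) in Input and of 8.97 and 5.97 CPM in RPF. YOD1, a deubiquitinating enzyme, had 41.8 and 43.3 CPM in Input and 19.03 and 12.32 CPM in RPF. FRS2, an adaptor of fibroblast growth factor receptors, had 32.4 and 31.4 CPM in Input and 11.5 and 6.89 CPM in RPF.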

How the data were processed

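Input and RPF libraries of HepG2 cells were grouped by their sample labels. Per the labels and the study's methods, the authors used cutadapt for trimming, STAR for alignment to hg38 and featureCounts for counting; versions, strand setting and the making of the Input libraries are not given in the sources used here. Deposited by the authors were estimated counts, many of them fractions, which arise when a read is split between alignments or overlapping genes. They were rounded before testing. GENCODE 44 named 58207 of the 58721 genes by identifier.

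The RNA (6 Input libraries), RPF (6 RPF libraries), TE (interaction, 12 libraries) and baseline (siControl RPF against Input) comparisons used edgeR 4.0.16 quasi-likelihood tests (R 4.3.3) with filterByExpr, TMM factors (for TE within each assay), robust dispersion and Benjamini-Hochberg adjustment over all genes tested, at a threshold of 0.05. On simulated data the scripts found 200, 200, 195 and 200 of 200 changed genes in the RNA, RPF, TE and baseline comparisons, each with at most 16 false calls. Those genes were changed 2-fold at expected counts over 200. The simulation had 1 fixed dispersion, no library that stood apart and no near-identical pair. Recovery of smaller changes, or in libraries like these, was not tested. SE was derived from the F statistic. The 10 genes and the lists were chosen with earlier results of these data known. Named from the lists were called genes and the 4 highest by siControl Input TPM; called at baseline alone, only examples are named. Other named genes share reads with a member or lie nearest in pattern. Replicate numbers were not used to pair samples in the main tests. Deviations of same-numbered libraries of the 2 conditions correlated at -0.0627 to 0.0956 in Input and 0.087 to 0.353 in RPF. Differently numbered RPF libraries correlated at -0.396 to 0.236. In RPF siControl replicate 1 thus went with siIGF2BP3 replicate 1 (0.338) and against replicate 2 (-0.396). Same-numbered Input and RPF libraries correlated at -0.000524 to 0.0518 in siControl and at -0.28 to -0.148 in siIGF2BP3. Since 1 RPF library stood apart and 2 were near-identical, these values cannot decide whether libraries pair by number. Reads had no molecular identifiers, so intervals cover counting error only. Coding lengths and sequences came from GENCODE 44 canonical transcripts. Alternatives were DESeq2 1.42.0, RLE or upper-quartile factors, other filters, protein-coding genes only, a replicate block, each library left out, siControl RPF replicates 2 and 3 summed, and other scalings. Summing IGF2 with its overlapping genes, adding IGF2BP2 pseudogenes throughout and IGF2BP3 pseudogenes to RNA and baseline, GENCODE coding lengths, and the fits that leave out siIGF2BP3 RPF replicate 1 or sum IGF2 counts together with another change were chosen after seeing the data; coding lengths from RefSeq proteins were planned and not run.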

Additional observations from a re-analysis of the deposited data

How the results depend on the processing

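The falls of IGF2BP3, IGF2, AFP and GPC3 in RNA, that of IGF2BP3 in RPF and TE, and all 9 baseline values kept direction and call under every alternative run. Of the 10 genes, 4 to 5 were called in RNA when a library was left out, 1 to 3 in RPF and 1 to 4 in TE. The highest counts in RPF and TE came without siIGF2BP3 RPF replicate 1, in fits that called 16.5% and 10.0% of all genes. With siControl RPF replicates 2 and 3 summed as well, 2 were called in RPF and 4 in TE (14.5% and 8.05% of all genes), and with IGF2 counts summed in place of that 3 and 4. In TE 2 were called with DESeq2, RLE factors, upper-quartile factors, protein-coding genes only, a filter of 5 CPM on the mean, TMM factors over all libraries or summed IGF2 counts, IGF2 being the one gained. With the replicate block 2 were called in TE and DLK1 (-0.17) passed in RNA; over all genes the block gave 931 calls in RNA, 379 in RPF, 228 in TE and 11540 at baseline, within 1.5 times of the main counts of 879, 336, 291 and 11558.

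Counts over all genes in RPF moved most, from 336: 674 with DESeq2, 201 with protein-coding genes only, 14 with siControl RPF replicates 2 and 3 summed, and 11 to 3410 with a library left out, the last without siIGF2BP3 RPF replicate 1. In TE they were 143 with the summed replicates and 126 to 1350 with a library left out, and in RNA 444 to 907; the lowest counts were 444 without siControl Input replicate 3 and 487 once siIGF2BP3 Input replicate 3 was dropped. Leaving out any RPF library moved the RPF count by over 1.5 times. Leaving out siIGF2BP3 RPF replicate 1 and summing the siControl pair gave 3025 in RPF and 1088 in TE. With IGF2 counts summed, the counts were 3409 and 1346 without that library and 14 and 142 with the siControl pair summed. The cause was not tested, except that summing leaves fewer samples.

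Signs turned only for values near 0 or resting on 1 library. IGF2BP2 in RPF was 0.0068 at a mean of at least 5 CPM, 0.0029 with protein-coding genes only, 0.012 with summed replicates (with IGF2 counts summed too, 0.0115) and -0.053 to 0.029 with a library left out. GPC3 in RPF was 0.0014 at 5 CPM, 0.0062 with summed replicates (0.00619 with IGF2 counts summed too), 0.039 with siIGF2BP3 RPF replicate 1 left out as well, 0.027 without that library and with IGF2 counts summed, and -0.034 to 0.028 with a library left out. DLK1 in RPF was -0.0934 with that library left out and the siControl pair summed and -0.0916 with IGF2 counts summed instead, and it ran from -0.091 to 0.16, LIN28B in RNA from -0.087 to 0.0095 and IGF2BP1 in TE from -0.086 to 0.012 with a library left out. Per coding length, the siControl RPF ratios were 5.76 for IGF2BP1 over IGF2BP2, 4.69 for IGF2BP1 over IGF2BP3 (4.36 per exon length) and 0.814 for IGF2BP2 over IGF2BP3. Depth limits H19, with at most 2 counts in an RPF library.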
